A study of Rattus norvegicus with 42 samples.

Results

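This report describes 10 genes of the ATF4 and amino acid stress response in rat liver under corticosterone (CORT): Atf4, Ddit3, Trib3, Chac1, Sesn2, Asns, Psat1, Phgdh, Psph and Shmt2. The members were taken by gene name. They had 10 of the 22929 genes in the RNA count table and 26 of the 60999 genic regions in the table for RNA polymerase 2 phosphorylated on serine 2 (pSer2 Pol2), and 8 of the 3981 glucocorticoid receptor (GR) regions had their centre within 50 kb of the transcription start site of a member.

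ATF4 is a basic leucine zipper transcription factor whose mRNA is translated preferentially when eIF2 is phosphorylated, as happens on amino acid shortage or stress in the endoplasmic reticulum. With C/EBP partners it binds C/EBP-ATF response elements in genes for amino acid synthesis and transport, and its targets DDIT3, TRIB3, CHAC1 and SESN2 act in the later response and its feedback. Because ATF4 is controlled largely through translation, the level of its mRNA is not a measure of its protein. In liver, glucocorticoids promote the use of amino acids for making glucose.

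All animals were adrenalectomised male Sprague Dawley rats that received an intravenous infusion over 3 hr, of CORT or of vehicle (VEH), and whole liver was sampled. In the pulsatile pattern (PULS) the pump ran for 20 min of every 60 min at 1 ml/hr. In the constant pattern (CONS) it ran throughout, at 1 ml/hr for the first 10 min and at 0.333 ml/hr after that. The study reports no difference in the CORT dose between the patterns, by area under the curve. GR and pSer2 Pol2 were each measured by chromatin immunoprecipitation and sequencing (ChIP-Seq) in 10 libraries, each from liver of 6 rats, with 2 libraries in each of 5 groups: PEAK_140 (PULS CORT at 140 min, the end of the third pulse), NADIR_180 (PULS CORT at 180 min), CONS_140, CONS_180 (constant CORT at those times) and VEH (pulsatile vehicle, 1 library at 140 min and 1 at 180 min). RNA was measured at 180 min in 3 libraries of each of 4 groups, PULS CORT, PULS VEH, CONS CORT and CONS VEH, so each pattern had its own vehicle in RNA but not in ChIP. Whole liver mixes cell types, so fewer cells of a type and less RNA per cell cannot be told apart.

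GR libraries held 2051977 to 6715803 tags, pSer2 Pol2 libraries 4938473 to 9326927 tags and RNA libraries 3956379 to 7777219 counted reads. The CONS_140 libraries were the deepest for pSer2 Pol2, with 9326927 and 8923921 tags. For GR, every PEAK_140 and NADIR_180 library held fewer tags than every CONS library. Depth thus followed these groups, and its part in the results was not tested. RNA levels are given as CPM, a gene's reads per 1000000 counted reads of its library, after edgeR rescaled the library sizes (TMM normalisation). The summed marker levels and the limits for a count of 0 use the counted reads without rescaling. Hepatocyte markers (7 of 7, including Alb and Ttr) summed to between 131084 and 173570 CPM in the 12 RNA libraries, and none of them was called in either pattern. The 5 cholangiocyte markers summed to 10.4 to 17.6 CPM, with Krt19 at 0 in all libraries. Of 6 stellate cell and fibroblast markers, Dcn and Rgs5 were called higher under CONS CORT, while the median log2 difference of the 6 was -0.20. The 6 summed to 348 to 383 CPM there against 342 to 487 CPM in CONS VEH. Their part in the results below was not tested. The 6 genes listed as known CORT targets were chosen with earlier results of these data known, so they do not independently check the labels. In RNA 5 of the 6 rose in each pattern. The sixth, Sgk1, a kinase gene, had a log2 difference of -0.94 under PULS, which was not called, and fell by 1.18 on the log2 scale under CONS. Among those that rose, Per1, a clock gene with a GR-bound promoter, rose by 2.74 under PULS and 3.12 under CONS (log2 difference; edgeR quasi-likelihood test, adjusted p = 3.29e-05 and 1.23e-06, n = 3).

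A search of the 250 bases before the start site of each member, with 50 bases after it, asked which members carried the letters of a C/EBP-ATF response element core (TGATGNAA, on either strand). All 10 members matched a promoter in RefSeq (build GRCr8). The core was found in 2 of 10 members and in 3.98% of 33469 promoters, on the minus strand of the gene in both cases. The sequences are printed because both genes are classical ATF4 targets and 1 of them, Trib3, has a GR region near it. The Trib3 sequence is chr3:161275534-161275783 (minus strand), with its match starting 21 bases before the start site. The Chac1 sequence is chr3:126795881-126796130 (plus strand), with its match starting 167 bases before the start site. Capitals mark the match, which is the reverse complement of the core.
Trib3: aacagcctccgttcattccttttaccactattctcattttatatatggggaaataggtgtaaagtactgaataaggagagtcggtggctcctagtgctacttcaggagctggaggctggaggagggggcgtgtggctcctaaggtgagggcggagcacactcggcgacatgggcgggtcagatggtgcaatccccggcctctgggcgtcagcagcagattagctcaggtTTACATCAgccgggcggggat
Chac1: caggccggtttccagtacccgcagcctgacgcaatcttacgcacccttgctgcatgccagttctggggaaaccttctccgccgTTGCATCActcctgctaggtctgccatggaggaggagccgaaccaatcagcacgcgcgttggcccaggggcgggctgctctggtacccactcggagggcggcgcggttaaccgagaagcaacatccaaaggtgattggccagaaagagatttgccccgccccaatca

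The other motifs searched in the same windows had no match in the 10 members. These were the hexamer AGAACA of the glucocorticoid response element (GRE) (20.7% of all promoters), the full GRE (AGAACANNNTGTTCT, 0.0149%), the endoplasmic reticulum stress element (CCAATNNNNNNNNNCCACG, 0.0657%) and the hexamer TGACGT of the cyclic AMP response element (7.94%). A match is a run of letters only, and no match says only that these letters were not in these windows.

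In RNA, 1 member was called by edgeR, Sesn2, which was higher under CONS CORT, and none was called under PULS CORT. The log2 differences of the members ran from -1.79 (Chac1, which had almost no reads) to 1.19 (Trib3) under PULS and from -0.84 (Psat1) to 0.94 (Sesn2) under CONS. A gene was called at an adjusted p below 0.05 (edgeR quasi-likelihood test, Benjamini-Hochberg over 14092 genes) together with a change of over 1.5-fold. Under PULS CORT 0 of 10 members were called, against 4.23% of all genes, and DESeq2 called 1. An unadjusted p below 0.05 was found for 3 members there, against 19.8% of all genes. Under CONS CORT 1 of 10 was called, against 9.2% of all genes, and 5 had an unadjusted p below 0.05, against 25.3% of all genes. The median log2 difference of the members was -0.26 under PULS and -0.34 under CONS, beside -0.01 and -0.01 over all genes, with 3 members above 0 and 7 below in each pattern.

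**Figure D1:**
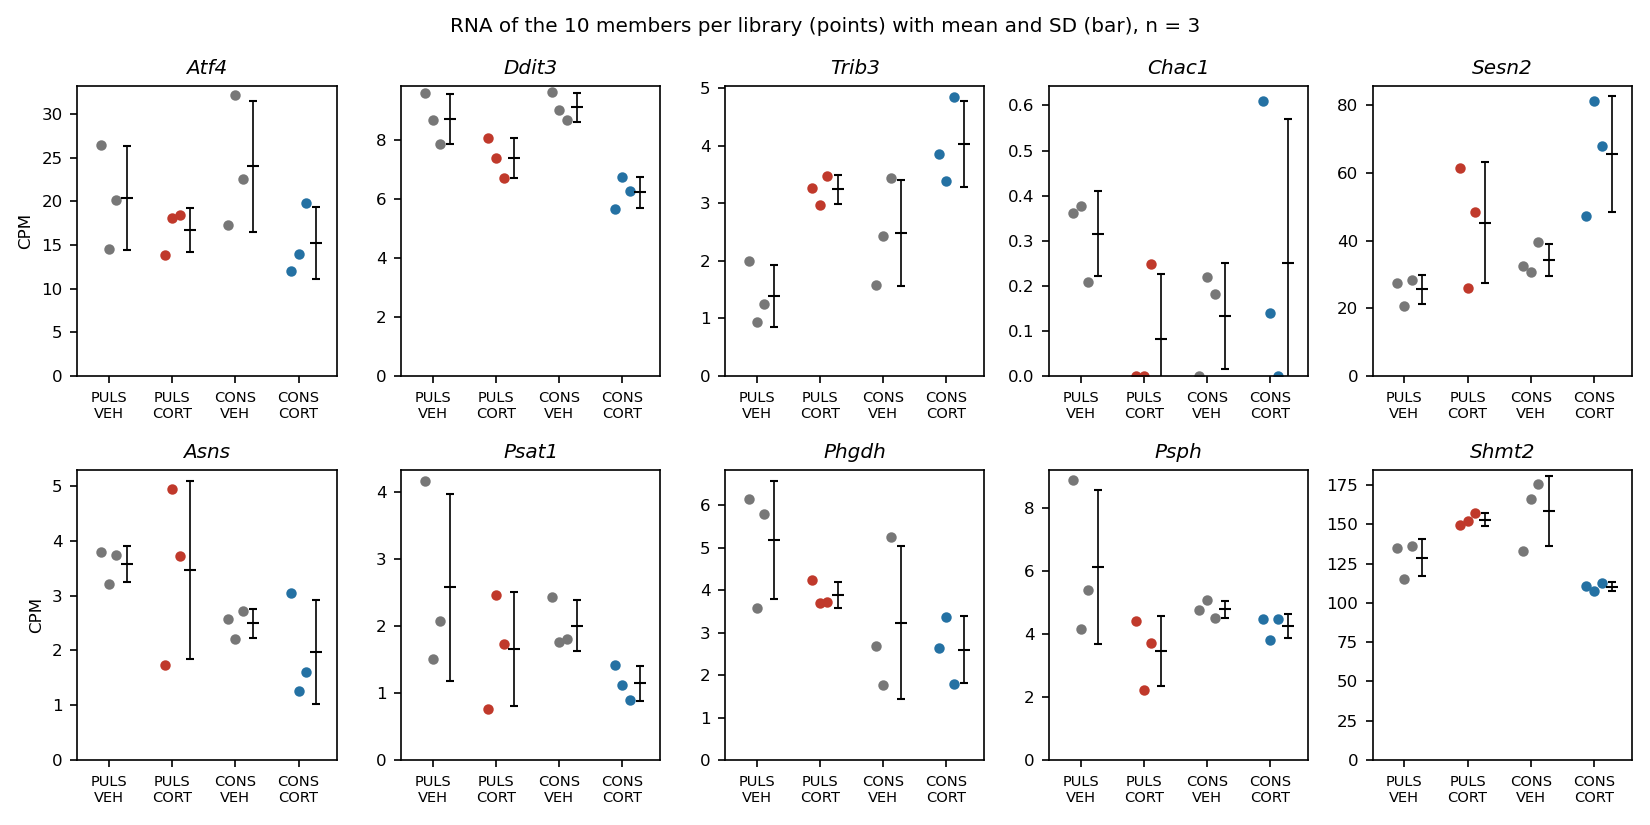
RNA level of the 10 members in CPM (vertical axis, a separate range for each gene) in each of the 12 libraries at 180 min, by group; points are libraries, and lines give the mean and SD of 3. Sesn2 lay higher in all 3 CONS CORT libraries than in all 3 CONS VEH libraries, and Shmt2 lay above VEH under PULS and below VEH under CONS.

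Atf4, the transcription factor of the pathway, was measured at 26.4, 14.5 and 20.1 CPM in PULS VEH and at 13.9, 18.1 and 18.4 CPM in PULS CORT. It stood at 17.3, 32.2 and 22.6 CPM in CONS VEH and at 12, 13.9 and 19.9 CPM in CONS CORT. The groups overlapped in both patterns. The log2 difference from VEH was -0.29 (SE 0.26, adjusted p = 0.583, edgeR) under PULS and -0.63 (SE 0.25, adjusted p = 0.115, edgeR) under CONS, neither past the threshold. Under CONS it was called without CONS VEH library 1 (-0.83, adjusted p = 0.0413, edgeR) and without the filter on low counts (adjusted p = 0.0455).

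Ddit3 encodes CHOP, a C/EBP relative induced downstream of ATF4. Its level was 9.65, 9.04 and 8.69 CPM in CONS VEH and 5.69, 6.76 and 6.27 CPM in CONS CORT, with no overlap. The log2 difference was -0.54 (SE 0.17, 1.46-fold), with an adjusted p of 0.0486 (edgeR), which is past the p threshold but under the fold threshold, so it was not called, and DESeq2 gave an adjusted p of 0.145. In PULS VEH it was at 9.60, 8.68 and 7.88 CPM and in PULS CORT at 8.08, 7.42 and 6.71 CPM, a log2 difference of -0.23 (SE 0.18, adjusted p = 0.532, edgeR). These groups overlapped.

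Trib3 encodes a pseudokinase that is an ATF4 target and restrains AKT and ATF4 itself. It was a rare transcript, with 178 reads over all libraries, at 1.99, 0.944 and 1.24 CPM in PULS VEH and 3.27, 2.97 and 3.48 CPM in PULS CORT. All PULS CORT libraries lay above all PULS VEH libraries, and the log2 difference was 1.19 (SE 0.38, 2.29-fold, adjusted p = 0.0801, edgeR), short of the threshold. Levels were 1.59, 2.42 and 3.44 CPM in CONS VEH and 3.86, 3.38 and 4.84 CPM in CONS CORT. Here the groups overlapped, with a log2 difference of 0.73 (SE 0.32, adjusted p = 0.159, edgeR). Chac1, which encodes a glutathione-degrading enzyme, had 12 reads in all, between 0 and 3 in each library, and was at 0 in 4 libraries, where 3 reads, the limit that a count of 0 allows, would be 0.386 to 0.720 CPM. No direction can be read for Chac1 at this depth, and this limit covers counting error only.

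Sesn2 encodes sestrin 2, a leucine-binding protein that holds back mTORC1. In CONS VEH it was at 32.6, 30.6 and 39.5 CPM, and in CONS CORT at 47.3, 81.2 and 67.9 CPM. Every CONS CORT library lay above every CONS VEH library, and Sesn2 rose 1.92-fold (log2 difference 0.94, SE 0.24, adjusted p = 0.0159, edgeR, n = 3). The adjusted p was 0.0761 without CONS CORT library 2, 0.0528 without CONS VEH library 1 and 0.0535 without CONS VEH library 2, so each of these libraries decided the call. Over all alternatives it ran from 0.00085 to 0.0761.

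Under PULS, Sesn2 was at 27.5, 20.8 and 28.4 CPM in VEH and at 61.4, 26 and 48.5 CPM in CORT. The second CORT library lay within the range of VEH and the other two lay above it. The log2 difference was 0.83 (SE 0.25, 1.78-fold) with an adjusted p of 0.0674 (edgeR), and 0.0296 by DESeq2. Without PULS CORT library 2 it was 1.11 with an adjusted p of 0.0116 (edgeR). The responses to the 2 patterns differed by 0.11 (SE 0.35, adjusted p = 0.94, edgeR), so no difference between patterns was shown for Sesn2.

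The 5 enzymes of amino acid synthesis had no call in either pattern. Asns, asparagine synthetase, was at 3.80, 3.21 and 3.73 CPM in PULS VEH, 1.73, 4.95 and 3.73 CPM in PULS CORT, 2.57, 2.20 and 2.71 CPM in CONS VEH and 3.05, 1.27 and 1.61 CPM in CONS CORT. The groups overlapped in both patterns. The log2 differences were -0.09 and -0.40 (adjusted p = 0.935 and 0.593, edgeR).

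Phgdh, Psat1 and Psph encode the consecutive enzymes that make serine from 3-phosphoglycerate. Phgdh was at 6.16, 3.59 and 5.81 CPM in PULS VEH and 4.23, 3.71 and 3.73 CPM in PULS CORT, and at 2.69, 1.76 and 5.25 CPM in CONS VEH and 2.64, 3.38 and 1.79 CPM in CONS CORT, with overlap in both. Psat1 was at 4.17, 1.51 and 2.07 CPM in PULS VEH, 0.770, 2.47 and 1.74 CPM in PULS CORT, 2.44, 1.76 and 1.81 CPM in CONS VEH and 1.42, 1.13 and 0.896 CPM in CONS CORT. Psph was at 8.88, 4.15 and 5.39 CPM in PULS VEH, 4.43, 2.23 and 3.73 CPM in PULS CORT, 4.76, 5.07 and 4.52 CPM in CONS VEH and 4.47, 3.80 and 4.48 CPM in CONS CORT. Psat1 and Psph lay below VEH without overlap under CONS, for Psph narrowly (4.48 against 4.52 CPM at the nearest), and overlapped VEH under PULS. Their log2 differences were -0.69 and -0.81 under PULS (adjusted p = 0.434 and 0.14, edgeR) and -0.84 and -0.18 under CONS (adjusted p = 0.287 and 0.769, edgeR). These 3 genes had between 120 and 305 reads over all libraries, and none of their differences passed the threshold at this depth.

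Shmt2, the mitochondrial serine hydroxymethyltransferase that links serine to one-carbon units, was the most read member, with 8790 reads. It was at 135, 115 and 136 CPM in PULS VEH and at 150, 152 and 157 CPM in PULS CORT. It was at 133, 166 and 176 CPM in CONS VEH and at 111, 107 and 113 CPM in CONS CORT. All PULS CORT libraries lay above their VEH and all CONS CORT libraries below theirs. Such non-overlap in opposite directions was found in 139 of 14092 genes (0.986%). In CONS VEH, Shmt2 lay 0.30 above PULS VEH on the log2 scale (SE 0.12, unadjusted p = 0.0228, adjusted p = 0.474, edgeR). This difference between the vehicles, which was not called, is part of the contrast between the patterns. CONS CORT lay 0.47 below PULS CORT (SE 0.12, adjusted p = 0.0752, edgeR), which was not called either.

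For Shmt2 the log2 difference was 0.25 (SE 0.12, adjusted p = 0.257, edgeR) under PULS and -0.52 (SE 0.12, 1.43-fold, adjusted p = 0.00762, edgeR) under CONS. The second passed the p threshold but not the fold threshold, so neither was called. Without CONS VEH library 1 it was -0.63 (adjusted p = 0.00153, edgeR) and was called. The difference between the responses was -0.77 (SE 0.17), with an adjusted p of 0.0756 by edgeR and 0.00176 by DESeq2. The adjusted p by edgeR was 0.0175 without CONS VEH library 1. Over all alternatives, DESeq2 included, the adjusted p ran from 0.00176 (DESeq2) to 0.189. In this test of the difference between patterns, 0 of 10 members were called by edgeR, against 0.0284% of all genes, 1 member had an unadjusted p below 0.05 and DESeq2 called 1.

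Counted over the members, 2 of 10 did not overlap between CORT and VEH under PULS (Trib3 and Shmt2, both above), where 25% of all genes did not. Under CONS 5 of 10 did not overlap (Sesn2 above, and Ddit3, Psat1, Psph and Shmt2 below), where 29.4% of all genes did not. The placing under CONS was narrow for Psph, with 4.48 against 4.52 CPM at the nearest. It was narrow also for Trib3, which overlapped by 3.38 against 3.44 CPM. Both placings depended on the rescaling of library sizes. Between CONS CORT and PULS CORT 0 of 10 members were called, against 0.887% of all genes, with 2 at an unadjusted p below 0.05 and 0 called by DESeq2. Between the vehicles, CONS VEH and PULS VEH, 0 of 10 members were called by edgeR, against 0% of all genes. There 1 member, Shmt2, and 1286 genes had an unadjusted p below 0.05. DESeq2 called 0 members and 20 genes there.

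The genes whose RNA level followed a member most closely were given by Pearson's r of log2 CPM over the 12 libraries, which share their groups and depth. For Atf4 they were Sf3a3 (0.894), Wdr45b (0.881) and Plin3 (0.857), and for Sesn2 they were Nudt8 (0.916) and Klc2 (0.916). Among the members, r with Atf4 ran from -0.37 for Sesn2 to 0.59 for Shmt2, and r with Sesn2 was 0.77 for Trib3 and -0.76 for Asns.

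pSer2 Pol2 marks elongating polymerase, and its signal was read over the first 10 kb of each gene at most, on a log2 scale after subtraction of input. Of the 10 members, 8 could be tested. The 3 regions of Asns and the 4 regions of Psat1 were listed at 0 in every library. Sesn2 had the largest difference from VEH among the main regions of these 8, a higher signal in CONS_140. In the fit without a block for replicate number, none of the 8 was called in any comparison (limma, adjusted p below 0.05 over 38315 regions and over 1.5-fold).

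**Figure D2:**
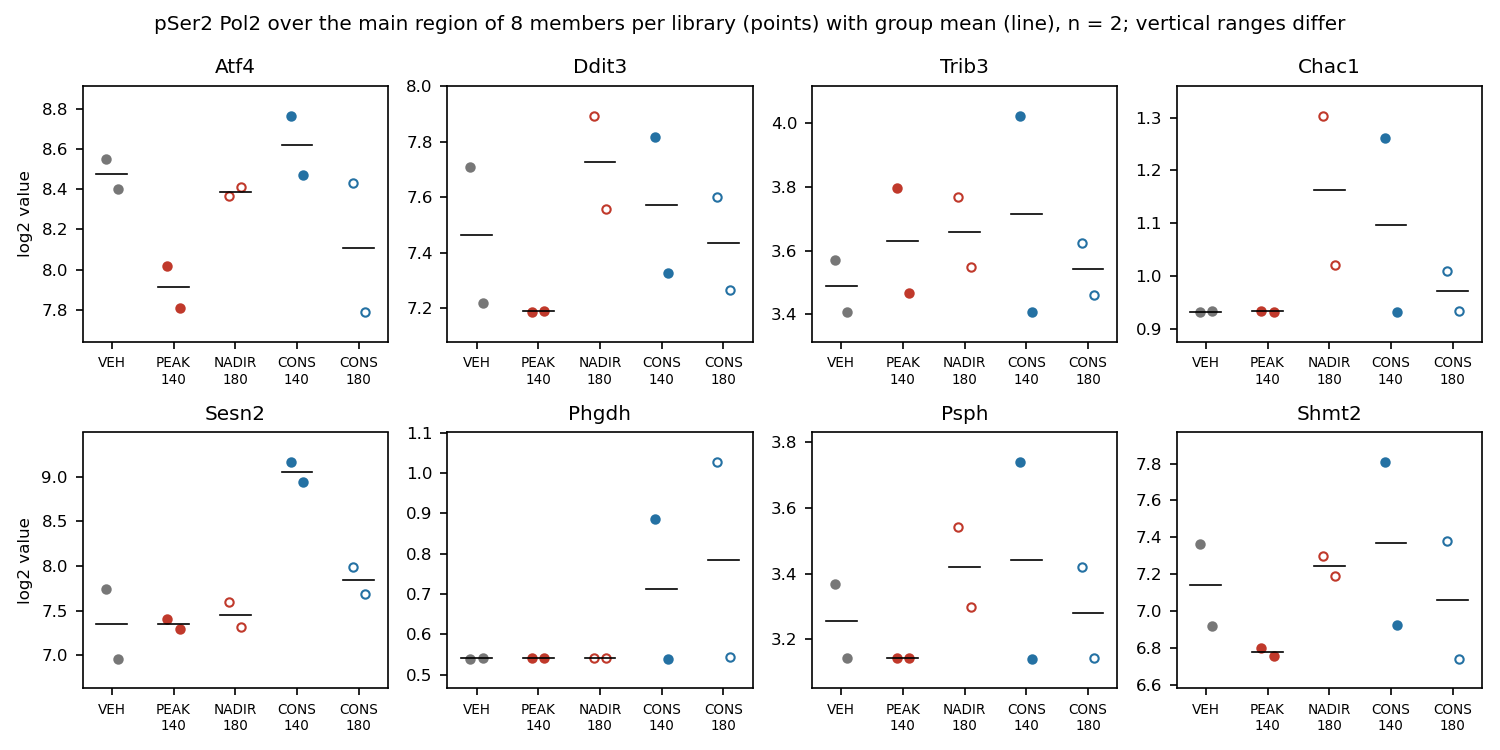
pSer2 Pol2 signal (log2, input subtracted, vertical axis with a separate range for each gene) at the 8 members with varying values, in each of the 10 libraries; points are libraries and lines are group means of 2. In Sesn2 the CONS_140 libraries stand at 9.16 and 8.94, above all 8 other libraries.

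At Sesn2 (rn6 chr5:150694117-150704117, minus strand) the log2 signal was 7.74 and 6.96 in VEH, 7.41 and 7.29 in PEAK_140, 7.60 and 7.32 in NADIR_180, 9.16 and 8.94 in CONS_140 and 7.99 and 7.69 in CONS_180. Both CONS_140 libraries lay above all others. The log2 difference was 1.70 (SE 0.35) from VEH and 1.70 (SE 0.35) from PEAK_140. The adjusted p (limma, n = 2) was 0.0571 and 0.0983 without a block, short of the threshold. With the replicate number as a block it was 0.03 and 0.0363, and after median centring of the libraries the differences were 1.55 and 1.47 (adjusted p = 0.0146 and 0.0412). The adjusted p against VEH was 0.0148 without CONS_140 library 2, but leaving that library out raised the calls over all regions from 302 to 5669 against VEH and from 10 to 8579 against PEAK_140. The adjusted p against VEH ran from 0.0133 to 0.973 over all alternatives.

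In the other groups the Sesn2 signal differed from VEH by -0.01 in PEAK_140, 0.10 in NADIR_180 and 0.49 in CONS_180, with adjusted p values of 0.999 or more. The change from 140 to 180 min differed between the patterns by -1.32 (SE 0.49, adjusted p = 0.604, limma), and by the same amount with an adjusted p of 0.312 under the block. So the higher signal at 140 min under CONS was not shown to fall differently from PULS.

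Atf4 (rn6 chr7:121480723-121482772, plus strand) had a log2 signal of 8.55 and 8.40 in VEH, 8.02 and 7.81 in PEAK_140, 8.36 and 8.41 in NADIR_180, 8.77 and 8.47 in CONS_140 and 8.43 and 7.79 in CONS_180. PEAK_140 lay below VEH, by 0.56 on the log2 scale (SE 0.32, unadjusted p = 0.11, limma), and CONS_140 lay 0.70 above PEAK_140 (adjusted p = 0.454, limma). A shorter Atf4 region, of 743 bases, stood at 6.25 and 5.97 in VEH and at 7.27 and 6.96 in CONS_140, a log2 difference of 1.00 (SE 0.37, adjusted p = 0.536, limma). Neither region was called.

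Ddit3 (rn6 chr7:70580198-70585084, plus strand) ranged from 7.19 to 7.89 over the 10 libraries. Shmt2 (rn6 chr7:70824715-70829815, minus strand) ranged from 6.74 to 7.81. In both, the PEAK_140 libraries lay below the VEH libraries and the other CORT groups overlapped VEH, and no difference was called. Trib3 (rn6 chr3:147813473-147819571, minus strand) stood between 3.41 and 4.02, Psph between 3.14 and 3.74, Chac1 between 0.93 and 1.30 and Phgdh between 0.54 and 1.03. Of the 10 libraries, 8 for Phgdh, 6 for Chac1, 5 for Psph and 2 for Trib3 lay within 0.01 of the lowest value of that gene.

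For the counts, 0 of 8 members were called against 0.989% of all regions for PEAK_140, 0.00522% for NADIR_180, 0.788% for CONS_140 and 0.214% for CONS_180, each compared with VEH. At an unadjusted p below 0.05 there were 0, 0, 1 and 0 members, against 5.01%, 1.45%, 5.91% and 2.94% of all regions. Likewise 0 of 8 were called between PEAK_140 and NADIR_180 (0.48% of all regions), between CONS_140 and PEAK_140 (0.0261%), between CONS_180 and NADIR_180 (0.17%) and in the difference between the 2 falls (0.0574%), with 0, 1, 0 and 1 at an unadjusted p below 0.05, against 5.48%, 8.71%, 2.29% and 6.41% of all regions. In CONS_140 all 8 were above VEH, with a median of 0.18 beside 0.15 over all regions. The 4 comparisons with VEH share its 2 libraries. Of the CORT libraries, library 1 read higher than library 2 in most members, and this is what the block takes up.

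GR occupancy near the members rose with CORT at most of the 8 regions, as it did over all regions listed. The authors made that list by merging peaks called in each group. PEAK_140, CONS_140 and CONS_180 gave 3210, 1723 and 2428 peaks, against 73 for NADIR_180 and 118 for VEH. A rise over VEH and a fall to NADIR_180 were therefore favoured by how the regions were chosen. Regions lay near 5 members: 1 near Atf4, 1 near Ddit3, 1 near Trib3, 2 near Sesn2 and 3 near Shmt2. Asns, Chac1, Psat1, Phgdh and Psph had none within 50 kb. At PEAK_140, 6 of 8 regions were called above VEH (limma, adjusted p below 0.05 and over 1.5-fold), against 80.5% of all regions. At NADIR_180 it was 2 of 8 against 7.79%, at CONS_140 6 of 8 against 65.1% and at CONS_180 5 of 8 against 68.2%. The members thus stood near the share of all regions in the 3 groups with many calls. These rises are part of a rise shared by all regions, whose median differed from VEH by 4.17, 0.84, 3.38 and 3.46 in the same order. Relative to that median the 8 regions ran from -2.44 to 1.84 at PEAK_140, and 0 of 8 were called in any of the 4 groups once each library was centred on its median.

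**Figure D3:**
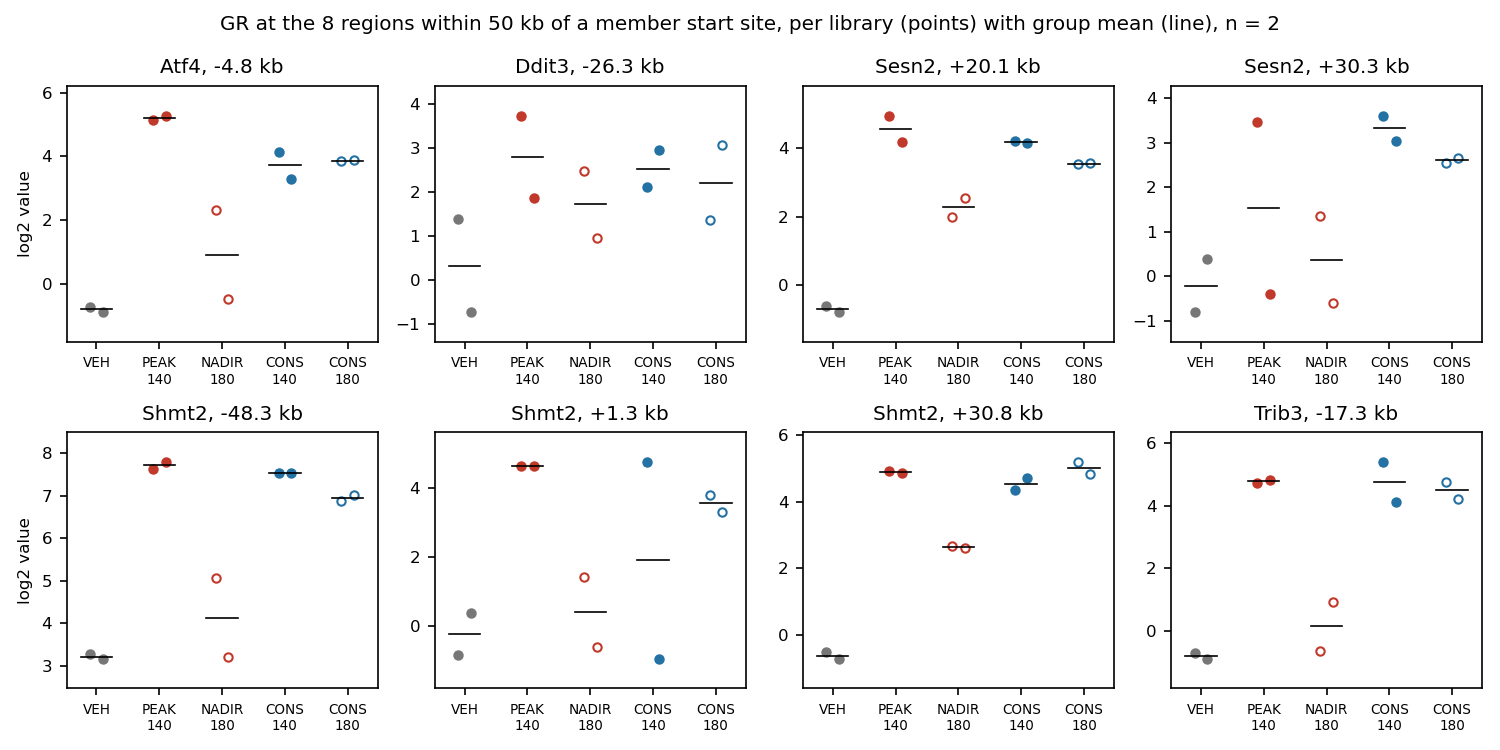
GR signal (log2, input subtracted, vertical axis) at the 8 regions within 50 kb of a member, in each of the 10 libraries; panels are regions named by member and distance from its start site. Both VEH libraries lie below all other libraries in 4 of the 8 panels, and NADIR_180 lies between VEH and PEAK_140 in the regions near Sesn2 at 20.1 kb and near Shmt2 at 30.8 kb.

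Near Atf4, a region centred 4.83 kb upstream (rn6 chr7:121475579-121476204), annotated to the end of a transcript of AABR07058511.2, had log2 signals of -0.71 and -0.89 in VEH and 5.14 and 5.28 in PEAK_140. It fell to 2.32 and -0.49 in NADIR_180 (PEAK_140 minus NADIR_180 4.29, adjusted p = 0.00333, limma), and stood at 4.14 and 3.29 in CONS_140 and 3.85 and 3.89 in CONS_180. The difference from VEH was 6.01 (SE 0.88, adjusted p = 0.000375, limma) in PEAK_140 and 1.72 (adjusted p = 0.377) in NADIR_180, and under the constant infusion 4.52 (adjusted p = 0.00204) at 140 min and 4.67 (adjusted p = 0.00186) at 180 min. The NADIR_180 libraries disagreed with each other, 1 being at the level of VEH, and without NADIR_180 library 2 that difference was 3.12 with an adjusted p of 0.00849 (limma).

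Near Sesn2, a region 20.1 kb downstream of the start (rn6 chr5:150683678-150684314), at the end of the gene itself, stood at -0.62 and -0.80 in VEH, 4.97 and 4.20 in PEAK_140, 1.98 and 2.56 in NADIR_180, 4.22 and 4.17 in CONS_140 and 3.55 and 3.57 in CONS_180. All CORT libraries lay above VEH. Differences from VEH were 5.29 (adjusted p = 8.21e-05, limma) at PEAK_140, 2.98 (SE 0.56, adjusted p = 0.0129) at NADIR_180, 4.9 (adjusted p = 0.000153) at CONS_140 and 4.27 (adjusted p = 0.000347) at CONS_180. The NADIR_180 call had an adjusted p of 0.06 without the VEH library of 180 min.

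A second region near Sesn2, 30.3 kb downstream (rn6 chr5:150673540-150674165, intergenic), had disagreeing libraries in PEAK_140 (3.46 and -0.40) and NADIR_180 (1.35 and -0.60). It stood at -0.81 and 0.40 in VEH, 3.61 and 3.03 in CONS_140 and 2.55 and 2.65 in CONS_180. It was called at CONS_140 alone of the 4 groups (3.52, adjusted p = 0.0314, limma). The call was lost, with adjusted p values of 0.0525 to 0.148, without any 1 of the VEH, CONS_140 or CONS_180 libraries. At CONS_180 the difference was 2.81, and it was called without PEAK_140 library 1 or 2 (adjusted p = 0.0232 and 0.0223), with the replicate number as a block (0.034) and with only the groups compared (0.0137). At PEAK_140 it was called without PEAK_140 library 2 (3.67, adjusted p = 0.0162).

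Near Trib3, an intergenic region 17.3 kb upstream (rn6 chr3:147836578-147837247) stood at -0.71 and -0.89 in VEH, 4.75 and 4.83 in PEAK_140, -0.64 and 0.93 in NADIR_180, 5.40 and 4.11 in CONS_140 and 4.76 and 4.23 in CONS_180. Its signal was high in every CONS library and near VEH in NADIR_180. Differences from VEH were 5.59 (adjusted p = 0.000204, limma) at PEAK_140, 0.94 (adjusted p = 0.549) at NADIR_180, 5.56 (adjusted p = 0.000272) at CONS_140 and 5.29 (adjusted p = 0.000414) at CONS_180. Near Ddit3, a region 26.3 kb upstream (rn6 chr7:70553673-70554068) lay at the promoter of a Kif5a transcript. Its libraries ranged from -0.74 to 1.37 in VEH and from 0.95 to 3.73 under CORT, and it was called in no comparison (2.48 at PEAK_140, adjusted p = 0.0541, limma).

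Of 3 regions near Shmt2, the one 30.8 kb downstream of the start (rn6 chr7:70798725-70799368), in an intron nearest to Stac3, stood at -0.53 and -0.73 in VEH, 4.92 and 4.87 in PEAK_140, 2.66 and 2.60 in NADIR_180, 4.35 and 4.71 in CONS_140 and 5.20 and 4.83 in CONS_180. It was called in all 4 groups against VEH, with 5.52 (adjusted p = 3.86e-05, limma) at PEAK_140 and 3.26 (SE 0.49, adjusted p = 0.00521) at NADIR_180. The one 48.3 kb upstream (rn6 chr7:70877804-70878429), in an intron, was already at 3.27 and 3.17 in VEH and stood at 7.64 and 7.80 in PEAK_140, 5.06 and 3.22 in NADIR_180, 7.54 and 7.55 in CONS_140 and 6.89 and 7.02 in CONS_180. It was called in 3 of the 4 groups, the exception being NADIR_180 (0.92, adjusted p = 0.405, limma), where it was called without NADIR_180 library 2 (1.84, adjusted p = 0.00831).

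The third lay within Shmt2, in intron 1, 1.32 kb from the start (rn6 chr7:70828140-70828845). Its log2 signal was -0.85 and 0.36 in VEH, 4.65 and 4.65 in PEAK_140, 1.40 and -0.62 in NADIR_180, 4.76 and -0.97 in CONS_140 and 3.79 and 3.32 in CONS_180. The CONS_140 libraries disagreed by more than any pair in this region, and the library that stood at -0.97 carries the label rep25. The difference from VEH was 4.9 (SE 1.59, adjusted p = 0.0186, limma) at PEAK_140, with adjusted p values of 0.0685 to 0.0872 without the VEH library of 140 min or either PEAK_140 library. At CONS_140 it was 2.14 (adjusted p = 0.255), and 5.01 (adjusted p = 0.0048) without rep25. PEAK_140 exceeded NADIR_180 by 4.26 (adjusted p = 0.0389), with adjusted p values of 0.0502 to 0.204 without any 1 of the VEH, PEAK_140, NADIR_180 or CONS_180 libraries.

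**Figure D4:**
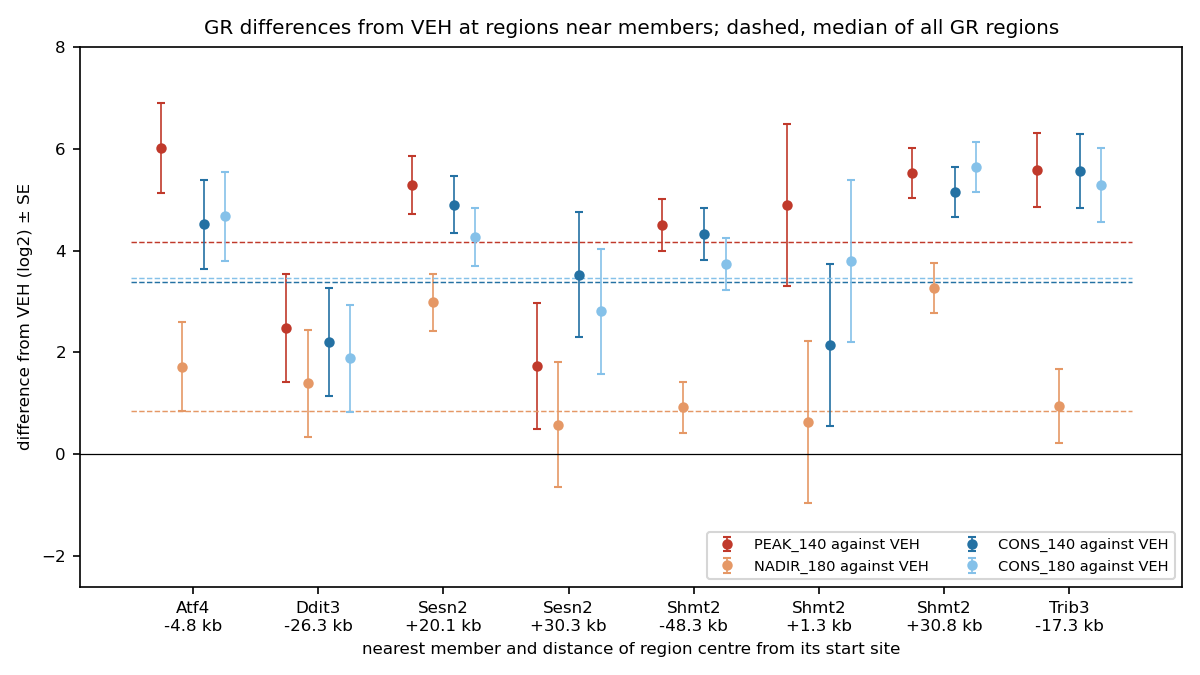
Log2 difference of GR signal from VEH, with its SE from limma (vertical axis), at the 8 regions near members for PEAK_140, NADIR_180, CONS_140 and CONS_180; dashed lines give the median of all 3981 regions, 4.17, 0.84, 3.38 and 3.46 in that order. In each group 6 of the 8 regions lie above the median and 2 below.

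The change in GR signal from 140 to 180 min was compared between the patterns, and the share of the 8 regions called was near that of all regions. PEAK_140 was called above NADIR_180 at 6 of 8 regions, against 69.3% of all regions, and CONS_180 above NADIR_180 at 4 of 8, against 49.6%. CONS_140 and PEAK_140 differed at 0 of 8 (limma), against 0.0502% of all regions, and none of the 8 had an unadjusted p below 0.05. The fall under PULS was larger than the fall under CONS at 4 of 8 regions, against 44% of all regions, namely the regions 4.83 kb from Atf4 (4.45, SE 1.24, adjusted p = 0.0234, limma), 17.3 kb from Trib3 (4.38, adjusted p = 0.0136) and 48.3 and 30.8 kb from Shmt2 (2.99, adjusted p = 0.0149, and 2.75, adjusted p = 0.0173). Those 2 near Shmt2 lay below the median of 3.11 over all regions and turned negative under median centring, where 0 of 8 were called. The number called was 1 without PEAK_140 library 1, 0 without CONS_180 library 1 and 2 without CONS_180 library 2. The call near Atf4 was also lost without PEAK_140 library 2 (adjusted p = 0.0648) or without rep25 (adjusted p = 0.0729). CONS_180 exceeded NADIR_180 near Atf4 by 2.95 (adjusted p = 0.0241), with adjusted p values of 0.0671 to 0.0987 without NADIR_180 library 2 or either CONS_180 library.

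For the region at the end of Sesn2 the difference between the falls was 1.68 (adjusted p = 0.107, limma), also below the median of all regions. Its PULS fall, PEAK_140 minus NADIR_180, was 2.31 (adjusted p = 0.00714, and 0.0549 without PEAK_140 library 1), and CONS_180 lay 1.29 above NADIR_180 (adjusted p = 0.0838). In the peak lists the authors made for each group from merged replicates, 7 of the 8 regions overlapped a peak of PEAK_140 by at least 1 base, 0 a peak of NADIR_180, 5 a peak of CONS_140, 7 a peak of CONS_180 and 0 a peak of VEH. Those lists held 3210, 73, 1723, 2428 and 118 peaks. Since the regions were themselves merged from such peaks, these overlaps are no separate evidence.

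The other genes of the pathway were read from lists that were chosen with earlier results of these data known, and each count is read beside the share of all genes given above. Among 20 tested genes known as further ATF4 targets, 3 rose and 0 fell under PULS CORT, and 3 rose and 1 fell under CONS CORT (edgeR). The list's median log2 difference was -0.15 under PULS and -0.06 under CONS, beside -0.01 and -0.01 over all genes.

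**Figure D5:**
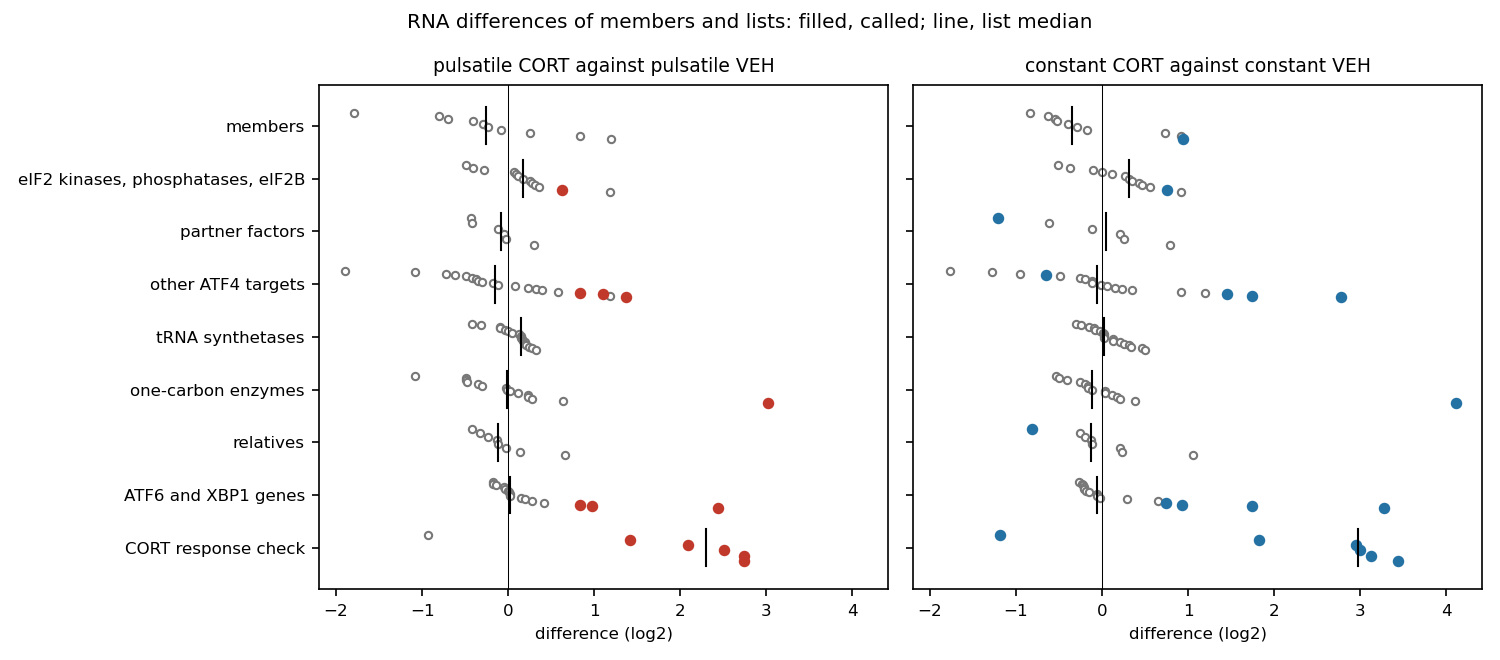
RNA log2 difference of CORT from VEH (horizontal axis) for the 10 members and the genes of each pathway list, under PULS and CONS; each point is 1 gene, filled where called by edgeR, and the line is the median of the list. Most points lie within 1 of 0 in both panels, and 5 of the 6 known CORT targets stand to the right (list medians 2.30 and 2.97), while Sgk1 stands to the left at -0.94 and -1.18.

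Slc38a2 encodes SNAT2, a transporter of small neutral amino acids that is induced on amino acid shortage. It was at 46.7, 49.5 and 38.2 CPM in PULS VEH, 139, 124 and 84.0 CPM in PULS CORT, 33, 41.0 and 43.1 CPM in CONS VEH and 214, 338 and 248 CPM in CONS CORT. It rose 2.58-fold under PULS (adjusted p = 0.000692, edgeR) and 6.87-fold under CONS (adjusted p = 2.38e-07, edgeR), with no overlap in either. Map1lc3b, which encodes an autophagosome protein, rose 2.15-fold and 2.73-fold, and Herpud1, an endoplasmic reticulum protein used in degradation of misfolded proteins, rose 1.79-fold and 3.34-fold. Sqstm1, the autophagy receptor p62, fell by 0.65 on the log2 scale under CONS (adjusted p = 0.00241, edgeR).

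At the polymerase level 19 genes of the same list were tested (limma). Called above VEH were 2 in PEAK_140, 0 in NADIR_180, 4 in CONS_140 and 0 in CONS_180, and none was lower. Of all regions 0.989%, 0.00522%, 0.788% and 0.214% were called in that order. The list's median log2 difference was 0.0007 at PEAK_140, beside -0.05 over all regions, and 0.22 at CONS_140, beside 0.15. Slc38a2 stood at 8.01 and 7.87 in VEH, 10.2 and 9.99 in PEAK_140, 8.46 and 8.31 in NADIR_180, 10.3 and 9.95 in CONS_140 and 9.44 and 9.15 in CONS_180. Its log2 difference was 2.16 (adjusted p = 0.00554) at PEAK_140 and 2.17 (adjusted p = 0.00577) at CONS_140. Cebpb, the ATF4 partner C/EBP beta, was at 5.88 and 5.14 in VEH and 9.47 and 9.31 in CONS_140. This was a log2 difference of 3.88 (SE 0.68, adjusted p = 0.0226, limma). Its PEAK_140 libraries, at 7.40 and 5.36, disagreed, and Cebpb was not among the genes tested in RNA.

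Of the kinases, phosphatase subunits and eIF2 genes that act above ATF4, 1 of 13 rose in RNA in each pattern, namely Eif2b3, a subunit of the eIF2 exchange factor (1.54-fold and 1.69-fold, adjusted p = 0.0267 and 0.00279, edgeR). None of the 13 was called for pSer2 Pol2. Of 11 listed partner and feedback transcription factors 6 were tested in RNA, of which 0 were called under PULS and 1 fell under CONS. This was Nfe2l2, the oxidative stress factor NRF2, at 222, 201 and 168 CPM in CONS VEH and 80.2, 93.7 and 81.0 CPM in CONS CORT (log2 difference -1.21, SE 0.17, adjusted p = 0.000189, edgeR). Under PULS its RNA difference was -0.43 (adjusted p = 0.157, edgeR). Its pSer2 Pol2 signal fell by 2.38 on the log2 scale at PEAK_140, under PULS (adjusted p = 0.00611, limma). Under CONS that signal was not called, with -1.02 at CONS_140 and -1.53 at CONS_180 (adjusted p = 0.385 and 0.148, limma).

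None of 18 cytosolic aminoacyl-tRNA synthetases, a gene set that ATF4 induces broadly in cultured cells, was called in RNA in either pattern (medians 0.15 and 0.02), and none of 17 was called for pSer2 Pol2. Of 15 one-carbon and glycine enzymes 1 rose in each pattern, namely Sds, serine dehydratase, which turns serine into pyruvate. It was at 47.3, 41.5 and 12 CPM in PULS VEH, 302, 254 and 268 CPM in PULS CORT, 19.8, 47.8 and 66.4 CPM in CONS VEH and 532, 875 and 887 CPM in CONS CORT (8.13-fold and 17.3-fold, adjusted p = 0.000452 and 8.74e-06, edgeR). Sds, which uses serine, was thus called in both patterns. The 3 members that make serine had no call, at 120 to 305 reads over all libraries, and were not tested against Sds.

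Among 8 relatives of the members 0 were called under PULS and 1 fell under CONS, Sesn3, a sestrin (log2 difference -0.81, adjusted p = 0.0133, edgeR), whose direction under CONS was opposite to that of Sesn2. Of 16 genes of the ATF6 and XBP1 arms of the unfolded protein response, 3 rose under PULS and 4 under CONS, with list medians of 0.02 and -0.06. Edem1, which helps to remove misfolded glycoproteins, rose 5.43-fold and 9.71-fold (adjusted p = 1.3e-06 and 2.39e-08, edgeR), Xbp1 rose 1.97-fold and 1.91-fold, and Atf6 rose 1.67-fold under CONS. Herpud1 belongs to this list as well as to the ATF4 targets. The 2 patterns of these genes were not tested against each other.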

How the data were processed

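Whole liver of 42 libraries was measured by the study. 10 were inputs without values of their own. The deposited RNA table holds whole read counts per Ensembl gene, made by the authors with STAR on rn6 (Rnor_6.0) and featureCounts 1.6.2, without normalisation. The deposited ChIP values are on a log2 scale. The authors aligned reads to rn6, counted tags with HOMER 4.9.1, subtracted input and normalised them, to total tags for pSer2 Pol2. For GR the methods name tags in binding regions and the file header total tags. Tables and columns of the authors' own comparisons (fold changes and p-values) were not used.

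Counts were fitted with edgeR 4.0.16 (TMM, quasi-likelihood, all 12 libraries, genes with more than 10 reads in total), with DESeq2 1.42.0 as an alternative. ChIP values were fitted with limma 3.58.1 (trend, all 10 libraries of an assay, regions that vary), in R 4.3.3. CPM is per 1000000 counted reads with library sizes rescaled by TMM, except for marker sums and the limits for a count of 0, which were not rescaled. Each member's pSer2 Pol2 value is that of its region with the highest mean. A call needed an adjusted p below 0.05 and over 1.5-fold. Scripts were tested on simulated data. All 10 members are named with their values, as are up to 4 called genes per list and the genes closest to Atf4 and Sesn2 in RNA, of which 1 is not reported here. The members and lists were chosen with earlier results of these data known. Labels do not say that RNA libraries come from separate animals, so p-values measure the spread between these libraries.

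Same-numbered libraries of the 4 CORT groups deviated together in pSer2 Pol2 (correlation of deviations 0.157 to 0.478 over 6 pairs of groups), where the series' design text states that 2 ChIP experiments were run independently. The blocked fit is therefore printed beside the result it changes. VEH libraries carry no number and took no part in the block. With the 140 min VEH library set beside library 1, their deviations correlated with those of the CORT groups at 0.189 to 0.518. The shared deviation was thus not limited to libraries of the same number.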

Additional observations from a re-analysis of the deposited data

Results flagged for a closer look

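The fall of GR signal from 140 to 180 min differed between the infusion patterns at 4 regions near members, by a test of that difference in limma. The fall under PULS exceeded that under CONS by 4.45 near Atf4 (4.83 kb), by 4.38 near Trib3 (17.3 kb), and by 2.99 and 2.75 near Shmt2 (48.3 and 30.8 kb), all on the log2 scale. The median over all regions was 3.11, and 44% of all regions were called, so 4 of 8 is near the background. The number called was 0 without CONS_180 library 1 and 1 without PEAK_140 library 1. The RNA response of Shmt2 differed between the patterns by -0.77 (log2). It is given here because every PULS CORT library lay above its vehicle and every CONS CORT library below its own. The adjusted p of that difference was 0.0756 by edgeR. Part of it lay between the vehicles, with CONS VEH 0.30 above PULS VEH (adjusted p = 0.474, edgeR). CONS CORT lay 0.47 below PULS CORT (adjusted p = 0.0752, edgeR).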

How the results depend on the processing

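Over 1425 comparisons of a member or region under another setting, not counting left-out libraries, 1328 kept direction and side of the threshold, 64 lost their call, 21 gained one and 12 reversed. All reversals were GR differences under median centring or quantile normalisation, which by construction remove the rise shared by most regions. In RNA, the members called under PULS became 1 with DESeq2 and 1 without the count filter. Those under CONS became 0 at an adjusted p below 0.01, 3 without the fold threshold and 2 without the filter, and those for the difference between patterns 1 with DESeq2 and 1 without the filter. For pSer2 Pol2, CONS_140 against VEH gave 1 under median centring, quantile normalisation, no variance trend, the replicate block and the upper regions alone, and CONS_140 against PEAK_140 gave 1 under median centring, the block and the upper regions. For GR, median centring gave 0 in PEAK_140, NADIR_180, CONS_140 and CONS_180 against VEH, in PEAK_140 and CONS_180 against NADIR_180, and in the difference of falls. Quantile normalisation gave 2, 0, 0, 1, 0, 0 and 0 in the same order. Within 25 kb lie only the regions near Atf4 at 4.83 kb, Sesn2 at 20.1 kb, Trib3 at 17.3 kb and Shmt2 at 1.32 kb. Of these, 1 was called at NADIR_180, 3 at CONS_140 and 3 at CONS_180. For CONS_180 against NADIR_180 it was 2 of them and for the difference of falls 2. Within 100 kb, 12 were called at PEAK_140, 10 at CONS_140 and 12 for PEAK_140 against NADIR_180. NADIR_180 gave 1 at an adjusted p below 0.01 and 0 with only the groups compared, and the difference of falls gave 0 at 0.01.

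Reversed under median centring were, near Shmt2 at 48.3 kb, PEAK_140 (-0.12) and CONS_180 (-0.33) against VEH, CONS_180 against NADIR_180 (-0.067) and the difference of falls (-0.40). Near Shmt2 at 30.8 kb they were PEAK_140 (-1.18) and CONS_180 (-0.50) against NADIR_180 and the difference of falls (-0.64). Near Sesn2 they were PEAK_140 against NADIR_180 at 20.1 kb (-1.13) and CONS_140 against VEH at 30.3 kb (-0.59). Under quantile normalisation the values were -0.72 for PEAK_140 against NADIR_180 near Shmt2 at 30.8 kb, -0.71 for the same near Sesn2 at 20.1 kb and -0.32 for CONS_140 near Sesn2 at 30.3 kb.

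Leaving out 1 library at a time gave 0 to 1 members called under PULS, 0 to 2 under CONS, 0 to 1 for the difference between patterns, and 0 to 0 between the CORT groups and between the vehicles. For pSer2 Pol2 it gave 0 to 1 for CONS_140 against VEH, 0 to 2 for CONS_140 against PEAK_140 and 0 to 0 for the others. For GR it gave 5 to 7 at PEAK_140, 1 to 4 at NADIR_180, 5 to 6 at CONS_140, 5 to 6 at CONS_180, 4 to 6 for PEAK_140 and 3 to 5 for CONS_180 against NADIR_180, 0 to 1 for CONS_140 against PEAK_140 and 0 to 5 for the difference of falls.

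In RNA and GR, deviations of same-numbered libraries correlated at -0.11 to 0.15 and at -0.03 to 0.07. Such values cannot show whether these libraries shared an experiment. The replicate block moved no count of members in RNA or GR by over 1.5 times. With it GR gained 1 region each for CONS_180 against VEH (6) and for the difference of falls (5). In pSer2 Pol2 the block moved 2 of 8 counts by more, both through Sesn2, and changed no other call. Over all features, calls for the difference between patterns in RNA numbered 4 with edgeR, 229 with DESeq2 and 204 without the filter, and calls for CONS CORT against PULS CORT 125, 207 and 273. For pSer2 Pol2 the block gave 501 calls for CONS_140 against VEH and 484 against PEAK_140, and fitting only the groups compared gave 0 and 0, beside 302 and 10. For GR at PEAK_140, 3204 calls became 534 under median centring and 1039 under quantile normalisation. With 2 ChIP libraries a group and few reads in Chac1, Trib3 and Psat1, modest changes in these genes were not detectable.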
